A study of Mus musculus with 18 samples.

Results

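The expression of 10 extracellular matrix genes was followed through 18 mouse RNA-seq libraries: the fibulin genes Fbln1, Fbln2, Fbln5 and Efemp1, and the small leucine-rich proteoglycan genes Bgn, Dcn, Lum, Fmod, Ogn and Prelp. They were taken by Ensembl identifier from the 55401 rows of a table of sorted endothelial cells and by symbol from the 22612 rows of a table of cultured EO771 cells, and each of the 10 was found once in each table. Blood vessel endothelial cells (BECs) came from the mammary fat pad of mice without tumours (BEC normal) or from primary EO771 tumours (BEC tumour). High endothelial cells (HECs), which line the venules through which lymphocytes enter lymph nodes, came from inguinal lymph nodes of mice without tumours (HEC normal) or of mice with tumours, where the labels name the tissue as lymph node metastases (HEC tumour). EO771, a mouse breast cancer line, was given vehicle or 12-HETE, the lipid made from arachidonic acid by the enzyme ALOX12. Each of the 6 groups had 3 libraries. By the methods of the study the mice were wild-type C57BL/6, the endothelial cells were sorted as CD45- CD31high cells and split into PNAd+ HECs and PNAd- BECs, and lymph node, fat pad and tumour were digested with different enzymes, so tissue and digestion cannot be told apart. The methods also state that C57BL/6 mice were obtained at 5 to 6 weeks of age and that EO771 cells received DMSO in saline as vehicle or 100 nM 12-HETE for 48 h, while the labels give none of these. The labels do not say whether replicates were separate animals or cultures. The study calls them independent experiments and does not state how many mice went into a library, so p-values measure the spread between these libraries.

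Fibulins are secreted glycoproteins that sit in basement membranes and elastic fibres. Small leucine-rich proteoglycans are short curved proteins, most of them carrying chondroitin, dermatan or keratan sulphate chains, that bind collagen fibrils and growth factors. Both families are made mainly by fibroblasts and mural cells, and vessel endothelium makes some of them for its own basement membrane. High endothelial venules rest on a thick sheath of basement membrane and reticular fibres.

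The endothelial libraries held 56.4 to 79.4 M deposited units, and the EO771 libraries held 17.3 to 18.6 M reads. Low endothelial values piled up at multiples of about 3.84, at which 43.5% of the values from 1 to 20 lay although 25.0% of those whole numbers are such multiples, and 23.3% of these values were under 1 step. What 1 read is worth in them is therefore not known, and 3 steps (11.52 units) were taken as the limit of detection. The normalised count used below is the deposited value divided by the size factor of its library, within each table. The 10 endothelial markers summed to between 2494 and 3654 deposited units per M of the library total (CPM) in the 12 endothelial libraries. Not all members were even across the groups. Pecam1 and Cdh5 were at 608.9 CPM or more in every library. Cldn5 was at 232.0 to 280.4 CPM in BEC normal, 0.246 to 0.554 in BEC tumour and 0.213 to 2.01 in HECs. Kdr was at 323.5 to 381.4 CPM in BEC normal and 66.6 to 76.6 in BEC tumour. The 7 high endothelial markers summed to between 974.8 and 3057 CPM in HECs and to between 6.21 and 11.8 CPM in BECs. The sums in HECs were carried by Glycam1, Fut7 and Chst4, and the other members did not separate HECs from BECs in this way. Gcnt1 was at 4.098 to 6.079 CPM in HECs and 4.558 to 7.873 CPM in BECs, and Enpp2 overlapped between them. Madcam1 was at 0 in all HEC normal libraries and at 12 to 27 deposited units in BEC normal. The sulphotransferase gene Chst4 was at 4 deposited units in HEC normal replicate 2, against 19627 and 21144 in the other two, while Glycam1 was high in all 3. Ccl21a, which has near-identical copies, was at 0 in all 6 HEC libraries. BEC tumour replicate 3 stood apart in epithelial markers, with a sum of 79.9 CPM against 4.51 and 7.49 in the other two.

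Promoter sequence was held for 8 of the 10 genes in the RefSeq table (GRCm38.p6), not for Dcn and Lum. The windows of 250 bases before the start are shown for Bgn, Efemp1 and Fbln5, whose levels moved together across the endothelial libraries, and for Prelp, which moved the other way. Capitals mark every match, on either strand, to the 6 motifs searched. The TATA box was searched with the letters TATAAA. The GC box was searched with GGGCGG, the box that the nuclear factor Y complex reads with CCAAT and the site of AP-1 factors with TGANTCA. The site of TEAD factors was searched with GGAATG, and the CArG box of serum response factor by its usual pattern. The windows are chrX:73483351-73483600 (plus strand) for Bgn, chr11:28852955-28853204 (plus strand) for Efemp1, chr12:101819120-101819369 (minus strand, the upstream of 2 starts) for Fbln5 and chr1:133921402-133921651 (minus strand) for Prelp.
Bgn: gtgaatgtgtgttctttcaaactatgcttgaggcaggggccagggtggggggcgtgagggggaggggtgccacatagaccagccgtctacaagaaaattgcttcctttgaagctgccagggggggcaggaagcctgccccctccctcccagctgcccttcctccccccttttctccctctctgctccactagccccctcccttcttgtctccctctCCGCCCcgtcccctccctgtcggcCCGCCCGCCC
Efemp1: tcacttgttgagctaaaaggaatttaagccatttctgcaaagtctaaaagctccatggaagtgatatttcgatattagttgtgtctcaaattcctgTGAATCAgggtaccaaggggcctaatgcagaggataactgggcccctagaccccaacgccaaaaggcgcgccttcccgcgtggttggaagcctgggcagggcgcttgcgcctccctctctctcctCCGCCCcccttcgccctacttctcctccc
Fbln5: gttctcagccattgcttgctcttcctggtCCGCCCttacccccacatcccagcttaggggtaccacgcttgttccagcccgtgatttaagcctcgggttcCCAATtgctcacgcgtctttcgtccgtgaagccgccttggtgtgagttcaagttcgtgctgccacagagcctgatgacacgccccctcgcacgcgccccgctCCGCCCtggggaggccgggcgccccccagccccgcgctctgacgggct
Prelp: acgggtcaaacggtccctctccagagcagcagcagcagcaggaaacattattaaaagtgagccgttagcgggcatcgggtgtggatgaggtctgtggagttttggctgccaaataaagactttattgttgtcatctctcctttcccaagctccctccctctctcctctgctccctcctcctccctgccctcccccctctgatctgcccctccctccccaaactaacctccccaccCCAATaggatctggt
The windows of Bgn, Efemp1 and Fbln5 shown each held at least 1 GC box, which 32.7% of all 32851 promoter windows hold, and that of Prelp held none. Of the windows not shown, that of Fbln2 and that of the downstream Fbln1 start held a GC box. Those of Ogn, Fmod, the upstream Fbln1 start and the downstream Fbln5 start held none. Prelp and Fbln5 held a CCAAT box, present in 33.8% of windows. Efemp1 held an AP-1 site, present in 6.75%. The TATA box (12.4%), the TEAD site (12.6%) and the CArG box (1.47%) were in none of the 4 windows. The last 13 bases of the Prelp window lie in an exon of Prelp in the GENCODE annotation. The GC content was 64.4% in Bgn, 65.2% in Fbln5, 53.6% in Efemp1 and 55.6% in Prelp, against a median of 52.4% over all windows.

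Fbln2, Bgn, Fbln5 and Efemp1 were high in BECs of the normal fat pad and low in HECs of the normal lymph node. The genes were chosen by these values, the difference between HEC normal and BEC normal, so the levels of these 2 groups are a description with no test. In BEC normal, Bgn and Fbln2 were among the most abundant transcripts, while Lum was at 0 and Prelp low. Fbln1 varied least between the groups among the fibulins, and Prelp was the one gene of the 10 that was higher in HECs than in BECs both with and without tumour.

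Fbln2 (ENSMUSG00000064080, chr6:91212455-91272540, plus strand) encodes a fibulin of basement membranes and vessel walls. Its normalised counts were 58510, 63080 and 63490 in BEC normal, 6022, 7315 and 6602 in BEC tumour, 160, 151 and 100 in HEC normal and 1167, 1042 and 928 in HEC tumour. No libraries of different groups overlapped, and the order was BEC normal, BEC tumour, HEC tumour, HEC normal. Per kb of exon the mean level in BEC normal was 9685 ± 434 (SD, n = 3), rank 394 of 18486 genes.

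Fbln1 (ENSMUSG00000006369, chr15:85205949-85286535, plus strand) encodes a fibulin of basement membranes and blood plasma. Its counts were 6793, 7602 and 7362 in BEC normal, 929, 1103 and 1238 in BEC tumour, 890, 1166 and 1029 in HEC normal and 655, 714 and 623 in HEC tumour. BEC tumour and HEC normal overlapped, and the other neighbours in the order did not. In HEC normal it was the most abundant of the 10 per kb of exon, at 235 ± 31.7.

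Fbln5 (ENSMUSG00000021186, chr12:101746565-101819055, minus strand) encodes a fibulin that tethers elastin to microfibrils and binds integrins. It was at 5382, 6113 and 5619 in BEC normal, at 188, 314 and 205 in BEC tumour, at 41.6, 12.2 and 48.7 in HEC normal and at 91.2, 107 and 112 in HEC tumour. The order of the groups was that of Fbln2, with no overlap between neighbours. Efemp1 (ENSMUSG00000020467, chr11:28853204-28926743, plus strand), the gene for fibulin-3, was at 4910, 4778 and 4907 in BEC normal and at 776, 985 and 970 in BEC tumour. In HECs it was near the limit of detection, at 30.4, 4.07 and 11.5 in HEC normal and 0, 15.8 and 4.43 in HEC tumour, and these 2 groups overlapped.

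Bgn (ENSMUSG00000031375, chrX:73483602-73495933, plus strand) encodes biglycan, a chondroitin and dermatan sulphate proteoglycan that binds collagen and, when soluble, Toll-like receptors. Its counts were 92440, 90120 and 100100 in BEC normal, 14370, 21190 and 17290 in BEC tumour, 339, 444 and 414 in HEC normal and 339, 405 and 404 in HEC tumour. BEC normal and BEC tumour lay apart from each other and from HECs, and the HEC groups overlapped. At 15450 ± 852 per kb in BEC normal, Bgn ranked 237 of 18486 genes, the highest rank of the 10.

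Dcn (ENSMUSG00000019929, chr10:97479609-97518143, plus strand) encodes decorin, the collagen-binding proteoglycan that fibroblasts make in large amounts. Unlike Bgn it was low in BEC normal, at 243, 149 and 152. It was at 540, 695 and 208 in BEC tumour, at 9.13, 6.11 and 19.1 in HEC normal and at 12.7, 4.93 and 19.9 in HEC tumour. The 2 BEC groups overlapped, as did the 2 HEC groups.

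Prelp (ENSMUSG00000041577, chr1:133910304-133921414, minus strand) encodes a leucine-rich protein with a heparin-binding end that anchors basement membrane to connective tissue. Its counts were 18.5, 44.7 and 23.4 in BEC normal, 325, 367 and 300 in BEC tumour, 197, 240 and 249 in HEC normal and 675, 706 and 614 in HEC tumour. No neighbouring groups overlapped, and BEC normal was the lowest group. Its exons share 350 bases with Gm15851 on the other strand, and since the use of strand in counting is not stated, reads of the pair cannot be told apart. The other 9 genes had no exon overlap with another gene.

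Lum, Fmod and Ogn were scarce. Lum (ENSMUSG00000036446, chr10:97565128-97572703, plus strand), the gene for the keratan sulphate proteoglycan lumican, was at 0 in all BEC normal and HEC normal libraries, which allows up to 0.195 CPM in BEC normal and 0.172 CPM in HEC normal (3 steps, counting error only). It was at 54.7, 3.38 and 13.1 in BEC tumour and at 0, 3.95 and 0 in HEC tumour. Fmod (ENSMUSG00000041559, chr1:134037254-134048277, plus strand), the gene for fibromodulin, was at 20.3, 0 and 4.06 in BEC normal, at 9.28, 10.2 and 23.5 in BEC tumour and at 0 in all 6 HEC libraries. Both had a mean under 10 over the table and were not tested. Ogn (ENSMUSG00000021390, chr13:49608046-49624501, plus strand), the gene for osteoglycin, was at 41.5, 82.4 and 49.8 in BEC normal, at 11.2, 6.11 and 11.5 in HEC normal and at 4.43 or less in the 6 tumour libraries. It passed the filter on low values through BEC normal alone, without which its mean was 5.0 units.

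**Figure D1:**
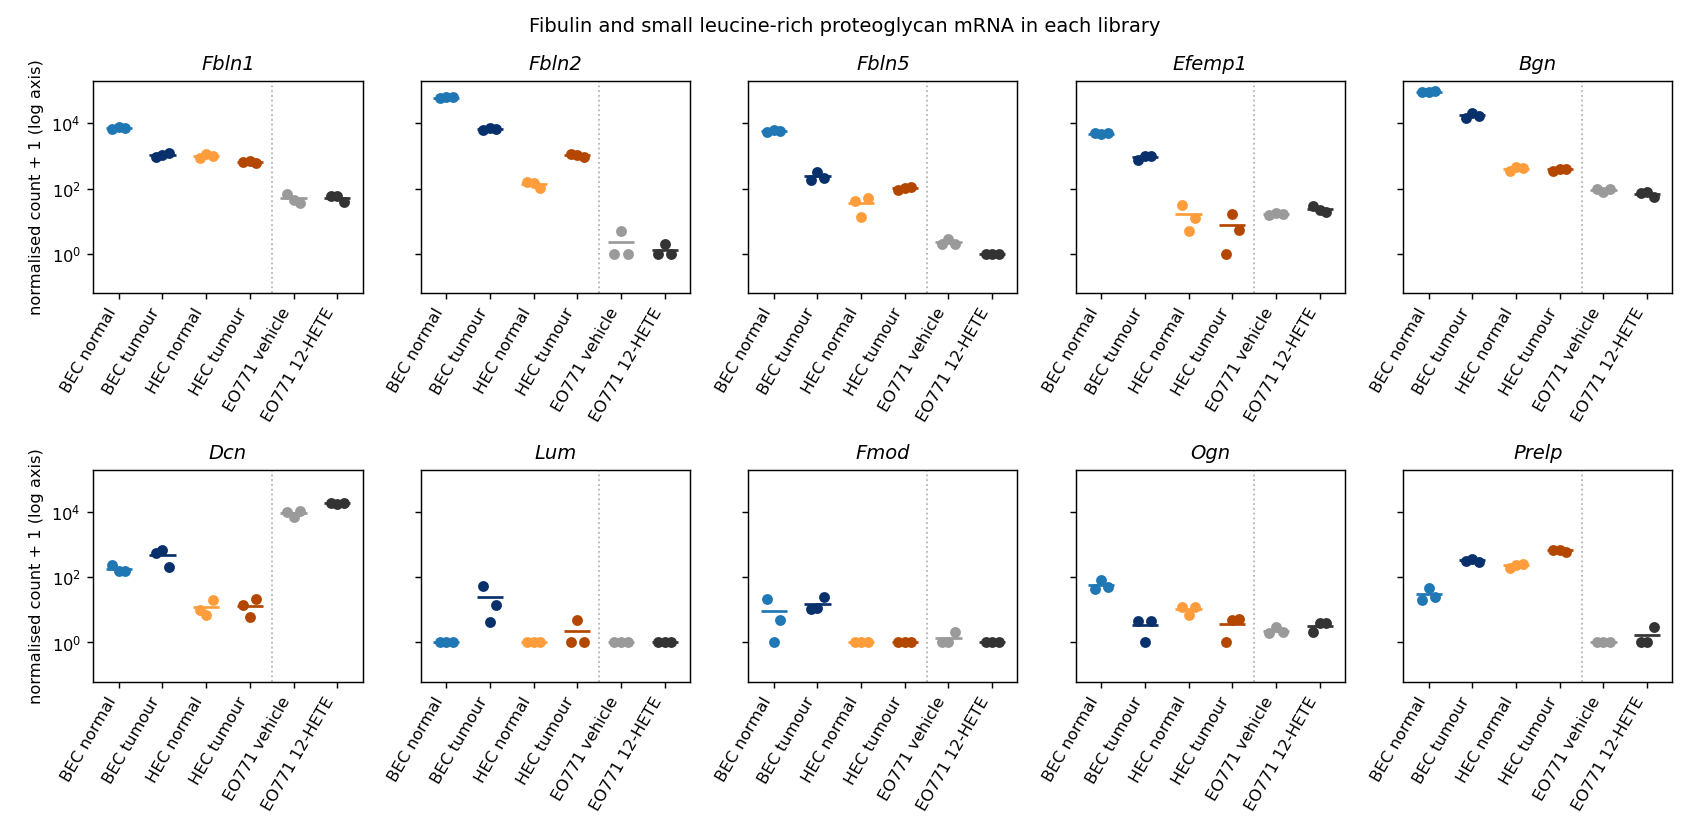
Normalised count plus 1 (log axis) of each of the 10 genes in each library, 3 libraries per group, with the group mean as a line; the dotted line separates the endothelial from the EO771 libraries, which were normalised separately. Fbln2, Fbln5, Efemp1 and Bgn are highest in BEC normal, Prelp is highest in HEC tumour, and Dcn is highest in the EO771 libraries.

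The makeup of the summed level also differed between the groups. Per kb of exon, Bgn made up 51.4% and Fbln2 32.2% of the summed level of the 10 genes in BEC normal, and 59.5% and 21.5% in BEC tumour. In HEC normal Fbln1 made up 58.3%, Bgn 16.2% and Prelp 15.7%. In HEC tumour Prelp made up 31.5%, Fbln2 28.1% and Fbln1 26.0%. In the EO771 groups Dcn made up 97.8% with vehicle and 98.9% with 12-HETE. These are shares of group means, a description of the levels above.

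**Figure D2:**
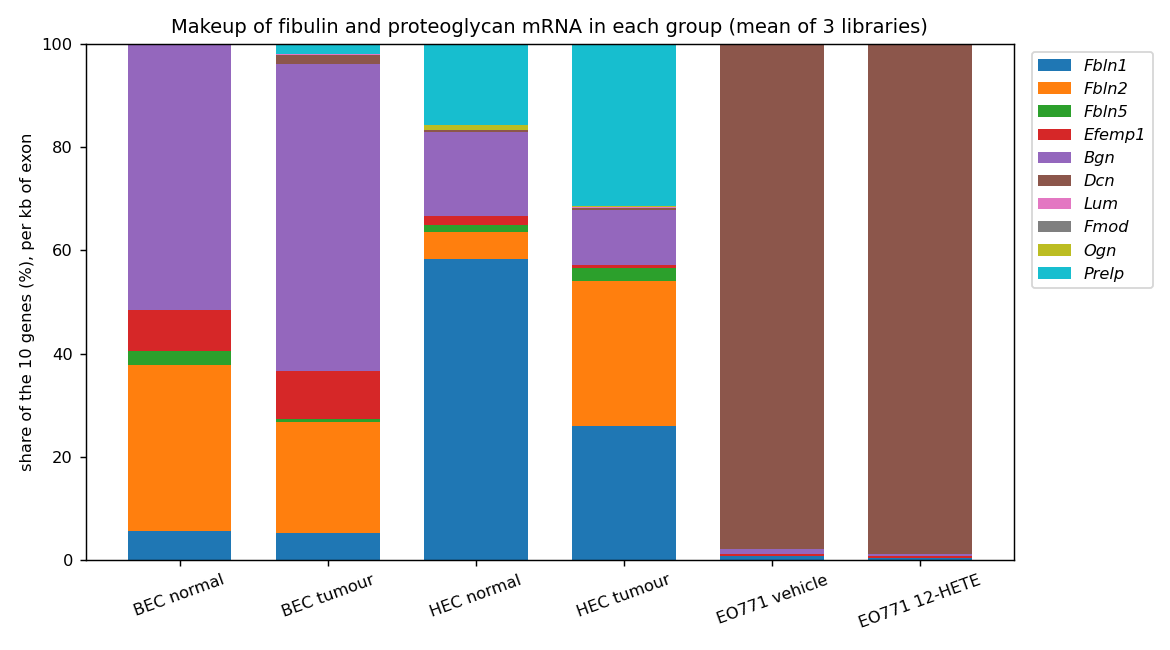
Share (%) of each of the 10 genes in their summed level per kb of exon, for the mean of the 3 libraries of each group. Bgn and Fbln2 fill most of the BEC bars, Fbln1 is the largest part of the HEC normal bar, followed by Bgn and Prelp at near-equal shares, and Dcn fills at least 97.8% of each EO771 bar.

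HEC normal and BEC normal, the libraries with which the genes had been chosen, differed by -8.82 ± 0.15 (log2 fold change ± SE, HEC normal against BEC normal) for Fbln2, -7.88 ± 0.15 for Bgn, -7.38 ± 0.32 for Fbln5 and -8.31 ± 0.85 for Efemp1. Fbln1 differed by -2.82 ± 0.13, Dcn by -3.98 ± 0.59 and Ogn by -2.59 ± 0.81. Prelp differed by 3.02 ± 0.27 in the other direction. No test is given for these values.

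HEC tumour was then compared with BEC tumour, libraries that the choosing contrast had not used, although both contrasts set lymph node against other tissue. HECs from mice with tumours held less Bgn, Dcn, Efemp1, Fbln2 and Fbln5 than BECs from the tumours, and more Prelp. By DESeq2's two-sided Wald test with Benjamini-Hochberg adjustment over 18511 genes (called at adjusted p under 0.05 and a fold change over 2), 5 of the 8 genes tested were lower, where 10.7% of all genes were called lower. One of 8 was higher, where 11.2% of all genes were. The median log2 fold change of the 8 was -1.93, and that of all genes 0.01.

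Bgn was lower in HEC tumour by a log2 fold change of -5.52 ± 0.15 (46.0-fold, 95% interval 37.6 to 56.3, DESeq2 adjusted p = 1.51e-299). Efemp1 was lower by 133-fold, with a wide interval of 39.9 to 443 (DESeq2 adjusted p = 1.47e-14), since HEC tumour held between 0 and 16 deposited units of it. Dcn was lower by 38.7-fold (17.4 to 85.9, DESeq2 adjusted p = 3.31e-18), with no overlap between the groups. Fbln2 was lower by 6.36-fold (5.32 to 7.60, DESeq2 adjusted p = 1.11e-89), which is far less than the difference between the normal groups.

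Fbln5 was lower by 2.28-fold (1.52 to 3.43, DESeq2 adjusted p = 0.00021), but without BEC tumour replicate 2 its log2 fold change was -0.93 and the call was lost. Prelp was higher by 2.01-fold (1.51 to 2.69, DESeq2 adjusted p = 8.72e-06), on the edge of the fold threshold: the groups did not overlap, and under 8 alternatives, edgeR among them, the log2 fold change was under 1, down to 0.94, and the call was lost. Fbln1 was lower by 1.64-fold (1.37 to 1.97, DESeq2 adjusted p = 4.7e-07), under the fold threshold. Ogn was under the limit of 3 steps in all 6 libraries, so no fold is given.

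**Figure D3:**
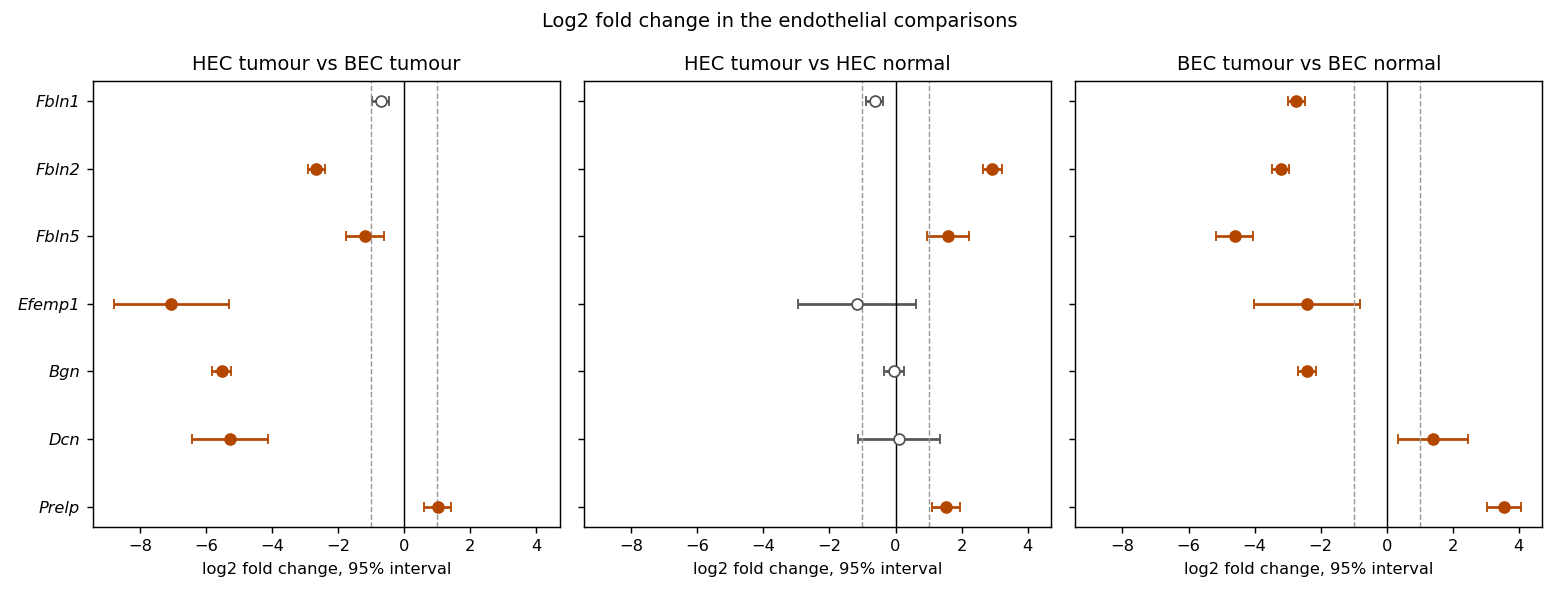
Log2 fold change with its 95% interval for 7 of the 8 genes tested (not Ogn, which was near or under the limit of detection in 3 of the 4 groups), in the 3 endothelial comparisons (filled points were called, open points were not; dashed lines mark a fold change of 2). Fbln2 and Fbln5 lie on opposite sides of 0 in HEC tumour against HEC normal and in BEC tumour against BEC normal, Bgn lies at -0.06 in the first and -2.42 in the second, and Prelp lies above 0 in all 3 panels.

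Within HECs, the presence of a tumour went with more Fbln2, Fbln5 and Prelp. These 3 of the 8 genes tested were called higher against HEC normal, where 4.58% of all genes were, and 0 of 8 were called lower, where 3.21% were. At an unadjusted p under 0.05 1 of the 8 was lower, Fbln1, by DESeq2 and by edgeR, and neither tool called it. HEC normal was part of the contrast that the choice of genes used. These counts, and the folds and p-values below, are therefore not independent of it.

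Fbln2 rose by 7.64-fold (6.24 to 9.36, DESeq2 adjusted p = 1.85e-83), from a mean of 137 ± 32.2 (SD, n = 3) to 1046 ± 120. Prelp rose by 2.91-fold (2.17 to 3.90, DESeq2 adjusted p = 2.05e-11), from 229 ± 28.1 to 665 ± 46.5. Fbln5 rose by 3.01-fold (1.93 to 4.70, DESeq2 adjusted p = 9.4e-06), from 34.2 ± 19.4 to 103 ± 10.7. For all 3, every HEC tumour library lay above every HEC normal library.

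Fbln1 was lower by 1.55-fold (1.29 to 1.86, DESeq2 adjusted p = 2.17e-05), with no overlap between the groups, under the fold threshold. Bgn differed by a log2 fold change of -0.06 (95% interval -0.36 to 0.24, DESeq2 adjusted p = 0.823). Dcn differed by 0.11 (-1.13 to 1.36) and Efemp1 by -1.16 (-2.95 to 0.62), both at 0 to 30 deposited units per library, and without HEC tumour replicate 2 Efemp1 was called lower (-2.76, DESeq2 adjusted p = 0.00359). Ogn was at or near the limit of detection in both groups, so no fold is given.

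Sums of other markers were also higher in HEC tumour, although 0 of 6 high endothelial and 0 of 3 mesothelial markers tested were called. Of all genes 4.58% were called higher. The summed high endothelial markers were 974.8 to 1331 CPM in HEC normal and 2225 to 3057 CPM in HEC tumour, with Glycam1, a sialomucin that carries ligands of L-selectin, at 573 to 592 and at 1078 to 1105 CPM. The 4 mesothelial markers summed to 71.8 to 79.1 CPM and to 135.8 to 142.7 CPM, of which Msln made up 65.9 to 73.5 and 131.5 to 138.3 CPM, while Wt1 was at 0 in all HEC normal libraries. The lowest high endothelial sum was that of HEC normal replicate 2, where Chst4 was at 4 deposited units. Not all members followed the sums. Fut7 was at 397.1 to 434.5 CPM in HEC normal, but at 1021, 1011 and 220.5 CPM in HEC tumour. Upk3b was at 5.50 to 7.32 CPM in HEC normal and at 4.02 to 5.25 CPM in HEC tumour. The part of these markers in the higher levels of Fbln2, Fbln5 and Prelp was not tested.

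In BECs the presence of a tumour went with a lower level of most of the family. Fbln1, Fbln2, Fbln5, Efemp1 and Bgn were called lower against BEC normal, which is 5 of 7 genes, where 10.8% of all genes were called lower. Dcn and Prelp were called higher, which is 2 of 7, where 12.4% of all genes were. Ogn is left out of these counts, since it passed the filter through BEC normal alone and so had to be lower elsewhere. BEC normal was part of the choosing contrast, in which most of these genes stood out as high there. The counts, and the folds and p-values below, are therefore not independent of the choice, which favours a fall. The median log2 fold change of the 7 was -2.42, and that of all genes 0.01.

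Fbln5 fell by 24.2-fold (16.4 to 35.7, DESeq2 adjusted p = 4.05e-56), the largest fall among the fibulins. Fbln2 fell by 9.28-fold (7.79 to 11.1, DESeq2 adjusted p = 1.53e-135) and Fbln1 by 6.65-fold (5.57 to 7.94, DESeq2 adjusted p = 1.89e-95). Efemp1 and Bgn fell by near-equal amounts, 5.35-fold each, but the interval was 1.75 to 16.3 for Efemp1 and 4.41 to 6.48 for Bgn (DESeq2 adjusted p = 0.00737 and 1.52e-63). Ogn was at 47 to 70 deposited units in BEC normal and at 0 to 4 units, under the limit of detection, in BEC tumour, and no fold or test is given.

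Prelp rose by 11.7-fold (8.20 to 16.8, DESeq2 adjusted p = 5.55e-40), from 28.9 ± 13.9 to 331 ± 34.0, with no overlap. Dcn was higher by 2.65-fold (1.28 to 5.49, DESeq2 adjusted p = 0.0186), but BEC tumour replicate 3, at 208, lay below BEC normal replicate 1, at 243. Without BEC normal replicate 2 or 3, or without BEC tumour replicate 1 or 2, the adjusted p of Dcn was between 0.0783 and 0.155 and the call was lost. Without BEC tumour replicate 3 its log2 fold change was 1.77 (DESeq2 adjusted p = 0.00099).

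Markers of other cell types also differed between the groups. In bulk libraries fewer cells of a type and less RNA per cell cannot be told apart. The summed level of 9 fibroblast markers was 219 to 225 CPM in BEC normal, 21.9 to 47.0 in BEC tumour, 17.5 to 19.8 in HEC normal and 8.97 to 9.87 in HEC tumour. That of 11 pericyte and smooth muscle markers was 894 to 930, 83.0 to 128, 32.8 to 35.1 and 19.6 to 22.0 CPM in the same order. In BEC normal 6 of the 9 fibroblast markers and 9 of the 11 mural markers stood above 3 steps (11.52 units) in every library, while Dpt, Abcc9 and Kcnj8 were at 0. The smooth muscle actin gene Acta2 was at 36856 to 48160 deposited units in BEC normal, but the smooth muscle myosin gene Myh11 at 12 to 22. The sums were carried by a few genes, and not all markers followed them. Pdgfra was at 13.9 to 17.6 CPM in BEC normal and at 15.3 to 16.9 CPM in HEC normal, where it made up most of the fibroblast sum. Notch3 was at 16.6 to 17.9 and 14.9 to 16.6 CPM in these groups, Des at 3.81 to 7.16 CPM in BEC normal and above that in every HEC normal library, up to 8.53 CPM, and Thy1 was at 0.945 to 1.08 CPM in BEC normal and 0.958 to 1.31 CPM in BEC tumour. Of 5 adipocyte markers, Adipoq, Cidec, Lep and Retn were at 0 in all BEC normal libraries.

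In BEC tumour the leukocyte markers summed to 992, 898 and 602 CPM, against 5.90 to 11.4 in BEC normal, and the fibroblast markers to 42.8, 47.0 and 21.9. Dcn, at 540, 695 and 208, was lowest in the library in which the fibroblast and leukocyte sums were lowest and the epithelial sum highest. Prelp had the same order of the 3 libraries as Dcn over a narrower range, and Fbln2 and Bgn were lowest in replicate 1. The part of other cells in any of these results was not tested.

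**Figure D4:**
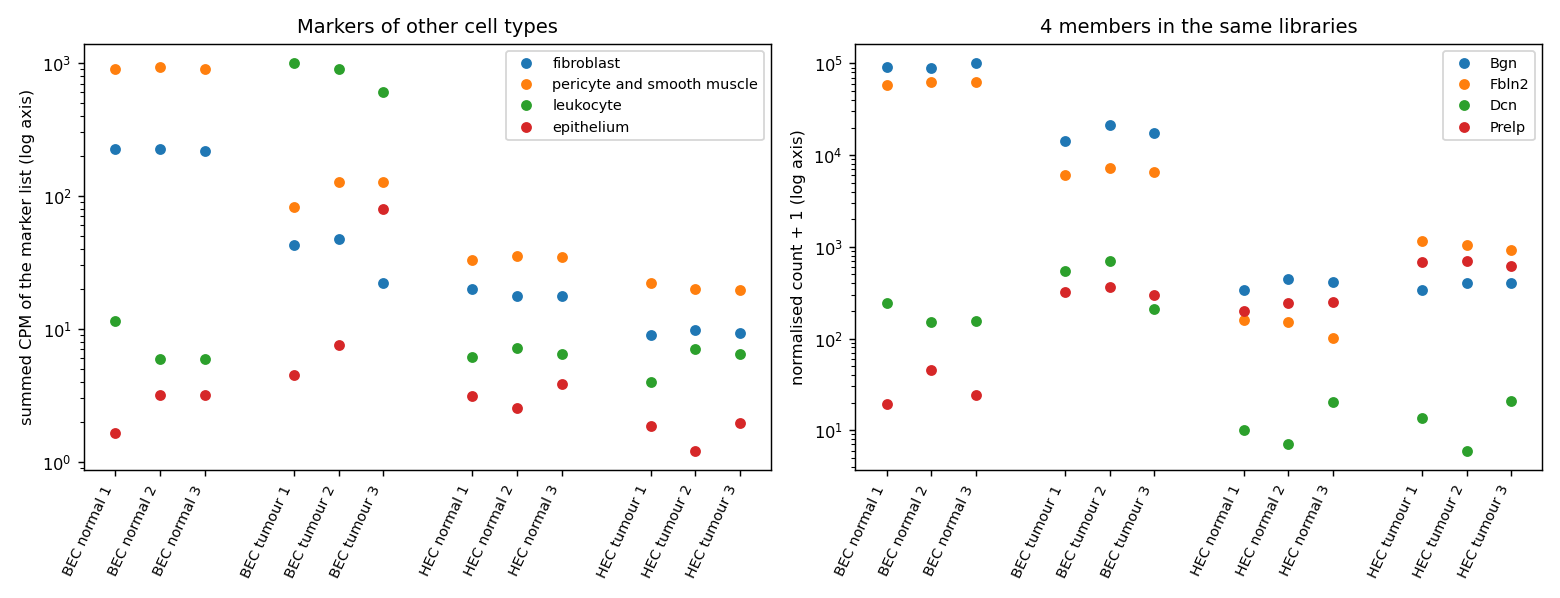
Left, summed CPM of 4 marker lists of other cell types in each endothelial library (log axis); right, normalised count plus 1 of Bgn, Fbln2, Dcn and Prelp in the same libraries (log axis). The fibroblast and mural sums are highest in BEC normal with Bgn and Fbln2, the leukocyte sum is highest in BEC tumour, and Dcn is lowest in the BEC tumour library with the highest epithelial sum.

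The change with tumour itself was then compared between the cell types, as the change in HECs less the change in BECs. This value equals HEC tumour against BEC tumour less HEC normal against BEC normal, and so contains with its sign turned the contrast by which the genes were chosen. It is given as a description, without p. The difference was past the thresholds in 5 of 7 genes: 4 had the higher change in HECs, as 11.2% of all genes did, and Prelp the lower one, as 12.1% did, and nothing is read from these counts. It was 6.19 ± 0.44 on the log2 scale (± SE) for Fbln5 and 6.15 ± 0.20 for Fbln2, which both rose in HECs and fell in BECs. It was 2.36 ± 0.21 for Bgn and 2.10 ± 0.19 for Fbln1, with a fall in BECs and no call in HECs. Prelp rose in both, and its difference was -2.01 ± 0.34. For Dcn it was -1.29 (95% interval -2.92 to 0.34). For Efemp1 it was 1.26 (-1.15 to 3.66) and rested on single libraries, with 2.24 without HEC normal replicate 1 and 1.84 without HEC tumour replicate 1, both past the thresholds, and -0.35 without HEC tumour replicate 2. Ogn, near or under the limit of detection in 3 of the 4 groups, is given no value.

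Elastic fibres are built on fibrillin microfibrils and cross-linked by lysyl oxidases, and 22 of 23 other genes of fibulins and elastic fibres were tested. In BEC tumour against BEC normal 9 were lower and 3 higher, where 10.8% of all genes were lower and 12.4% higher (median log2 fold change -0.70, all genes 0.01). Lox, a cross-linking oxidase, fell by 3.36 on the log2 scale, Mfap2, a microfibril glycoprotein, by 2.85 and Ltbp1, which holds latent TGF-beta in the matrix, by 2.72, while Mfap5, another microfibril protein, was higher, at 72.4 ± 17.3 against 4.77 ± 4.24. In HEC tumour against HEC normal 3 were higher and 1 lower, where 4.58% and 3.21% of all genes were, and Mfap2 (higher) and Fbn2 (lower) among them had means of 1.84 and 4.07 at most. There Mfap5 rose by 1.68, from 71.9 ± 33.0 to 230 ± 16.4, and the oxidase Loxl1 by 1.09, from 371 ± 28.4 to 790 ± 42.4. In HEC tumour against BEC tumour 7 were lower and 4 higher, where 10.7% and 11.2% of all genes were, and Lox was at 26.2 ± 22.9 against 654 ± 53.6. The change with tumour was higher in HECs for 9 and lower for 5, where 11.2% and 12.1% of all genes were.

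Of 12 other small leucine-rich proteoglycan genes, 7 passed the filter. In BEC tumour against BEC normal 4 were lower and 3 higher, where 10.8% and 12.4% of all genes were. Podn was at 9.37 ± 2.44 against 81.0 ± 36.2, and Podnl1 at 5.13 ± 5.08 against 179 ± 31.6. Podnl1 passed the filter through BEC normal alone and so had to be lower elsewhere. Optc, 1 of the 3, was under the limit of detection in both groups. Nothing is read from these counts. Optc alone was called in HEC tumour against BEC tumour, where 11.2% of all genes were called higher. It was at 76.3 ± 10.3 against 4.42 ± 3.83. Without HEC tumour Optc would not pass the filter, so it had to be higher there, and nothing is read from its call.

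Of 22 genes of chondroitin and dermatan sulphate synthesis, which build the chains of biglycan and decorin, 21 were tested. In BEC tumour against BEC normal 3 were lower and 1 higher, where 10.8% of all genes were lower and 12.4% higher. Csgalnact1, which adds the committing sugar of the chain, changed by a log2 fold of -3.62 ± 0.30, with means of 158 ± 6.31 in BEC tumour and 1955 ± 185 in BEC normal, while Xylt1, which starts the chain on the protein, rose by 3.47, with means of 565 and 51.3. In HEC tumour against BEC tumour 4 were lower, where 10.7% of all genes were. The largest difference was that of Chpf, at 0 in all 3 HEC tumour libraries and at 1712 ± 375 in BEC tumour. In HEC tumour against HEC normal 1 was higher, B3galt6 (1.18), and 1 lower, Chpf, at 0 against 10.4 ± 11.9, where 4.58% and 3.21% of all genes were.

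Of 9 genes of keratan sulphate synthesis, 7 were tested, some of which also serve the sulphated sugars that bind L-selectin on high endothelium. Chst2 and Chst1 were lower in tumour BECs than in those of the fat pad (-3.42 ± 0.21 and -2.08 ± 0.12), where 10.8% of all genes were lower. In HEC tumour against HEC normal B3gnt2 was higher (4.07 ± 0.70), with a wide spread of 2527 ± 1937, and Chst1 lower (-1.24 ± 0.12). Of all genes 4.58% were higher and 3.21% lower there. Of 15 receptor genes for these proteins 14 were tested, and 3 were higher and 2 lower in BEC tumour against BEC normal, close to the shares of all genes (12.4% and 10.8%). Tlr2, through which soluble biglycan signals, rose there by 1.58 on the log2 scale beside the leukocyte sums above, and Kdr, the VEGF receptor that decorin can bind, fell by 2.33. In HEC tumour against HEC normal Egfr alone was called (1.03 ± 0.25, higher), where 4.58% of all genes were higher. In HEC tumour against BEC tumour 5 were lower, where 10.7% of all genes were.

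Of the proteoglycan genes, Dcn, Lum, Ogn, Prelp and Fmod lie in clusters with relatives. Optc, the gene for opticin, lies 2.31 kb from Prelp on the same strand of chromosome 1. Its counts were 0 in the 3 BEC normal libraries, 6.49, 6.77 and 0 in BEC tumour, 17.2, 33.6 and 13.4 in HEC normal and 68.1, 87.8 and 73.1 in HEC tumour. Optc, like Prelp, was highest in HEC tumour and lowest in BEC normal, but BEC tumour and HEC normal stood in the reverse order. Fmod lies 116 kb from Prelp and was at 0 in all HEC libraries. Dcn, Lum, Kera and Epyc follow each other on chromosome 10 within 126 kb of Dcn, and Kera and Epyc did not exceed 4 deposited units in any library. Upstream of Ogn on chromosome 13 lie Omd, Aspn and Ecm2. Of these Ecm2 was lower in tumour BECs than in those of the fat pad (-2.65 ± 1.02, DESeq2 adjusted p = 0.0194). It stood around the limit of detection in BEC tumour, at 19, 8 and 0 deposited units.

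Over the 12 endothelial libraries, the log2 counts of Efemp1 and Bgn had a Pearson r of 0.965, those of Fbln2 and Fbln5 of 0.945 and those of Fbln2 and Bgn of 0.936. Prelp had a negative r with each of the other 7 genes tested, from -0.963 with Fbln1 to -0.419 with Dcn. Among all other genes tested, those most like Bgn were Rtl6, Mark1 and Prkd1, all with r of at least 0.998, those most like Fbln2 were Nqo1, Coa5 and Adgrg3 (r of at least 0.988), and those most like Prelp were Gm39822, Adamtsl5 and Por (r of at least 0.986). The points share 4 groups of 3 libraries and so mostly repeat the group levels. They are a description with no p.

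EO771 cells in culture showed another makeup, and 12-HETE went with more Dcn. Dcn was at 9665, 6816 and 10770 with vehicle and at 18370, 17990 and 18840 with 12-HETE. The groups did not overlap, and its rank per kb was 575 of 11473 genes with vehicle and 244 with 12-HETE. By DESeq2 over 11602 genes Dcn was higher by 2.03-fold (95% interval 1.63 to 2.52, log2 fold change 1.02 ± 0.16, DESeq2 adjusted p = 4.01e-09), which was 1 of the 4 genes tested, where 2.38% of all genes were called higher. By DESeq2 0 of the 4 were called lower, where 7.79% of all genes were, and 0 were lower at an unadjusted p under 0.05 by DESeq2 or by edgeR. Without vehicle replicate 2, the lowest library, the log2 fold change of Dcn was 0.84 and the call was lost on the fold threshold (DESeq2 adjusted p = 5.05e-25).

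The other 3 genes tested were low. Bgn was at 98.0, 76.5 and 94.2 with vehicle and at 72.9, 79.8 and 55.1 with 12-HETE (log2 fold change -0.37, 95% interval -0.86 to 0.12, DESeq2 adjusted p = 0.222). Efemp1 was at 14.8, 16.2 and 15.4 with vehicle and at 28.8, 20.7 and 17.7 with 12-HETE, with no overlap (0.53, -0.36 to 1.42, DESeq2 adjusted p = 0.34). Fbln1 was between 35.8 and 69.3 with vehicle and between 38.4 and 59.6 with 12-HETE (0.07, -0.63 to 0.76, DESeq2 adjusted p = 0.895). Fbln2, Fbln5, Fmod, Ogn and Prelp did not exceed 4 reads in any library, and Lum was at 0 in all 6.

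Most other genes typical of fibroblasts were at or near 0 in these cells, but Pdgfra was not. It was at 65 to 86 reads with vehicle and at 164 to 188 with 12-HETE. Dpt was at 0 in all 6 libraries, Col1a1 at 5 to 13 reads and Col3a1 at 0 or 1. The 4 epithelial markers summed to 3246 to 4131 CPM with vehicle and to 2423 to 2490 CPM with 12-HETE, with Krt18 at 1866 to 2455 and at 1084 to 1118 CPM, and none of the 4 was called. The part of this shift in the level of Dcn was not tested. The summed fibroblast markers were 4.72 to 5.61 CPM with vehicle and 9.72 to 11.4 with 12-HETE, and Pdgfra was the 1 marker of that list that passed the filter and was called higher (log2 fold change 1.23). Among the elastic fibre genes 11 were tested, and 3 were lower, where 7.79% of all genes were. These were Fbn1 (-1.40 ± 0.20), Hmcn2 (-1.24 ± 0.31) and Ltbp1, at 1 read in each 12-HETE library and 40.6 ± 8.25 with vehicle. Of 12 receptor genes tested Lrp1, which takes up decorin, was higher (1.05 ± 0.08), and Tlr2 (-1.51) and Itgb3 (-1.11) were lower. Of all genes 2.38% were higher and 7.79% lower.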

How the data were processed

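RNA of 12 sorted endothelial and 6 EO771 libraries was sequenced. Per the methods, the authors aligned reads to GRCm38 with STAR and counted fragments with featureCounts. The endothelial values that the authors deposited were treated as estimated counts, since they are whole numbers that pile up in steps of about 3.84, a pooled estimate, with other values between the steps. The EO771 values were deposited by the authors as raw counts per gene symbol. The labels and the methods name different library kits, and the use of strand in counting was not given in the sources used here. Coordinates and exon lengths are from GENCODE M21 on GRCm38, in which 260 endothelial identifiers and 298 EO771 symbols had no match.

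Genes with a mean of at least 10 over a table were tested (18511 and 11602) with DESeq2 1.42.0 in R 4.3.3, with group as the only term, in 1 fit of the 12 endothelial and 1 fit of the 6 EO771 libraries. A gene was called at an adjusted p under 0.05 and a log2 fold change over 1 in size, which are the thresholds of the methods. Lists were described by their counts and medians, naming at most 4 called genes of a list with the largest changes. Alternatives were edgeR 4.0.16 with TMM, TMM factors in DESeq2, no filter, values divided by the step, a replicate block, fits of the 2 groups compared and fits without each library. A value of 3 reads (for endothelial values 3 steps, 11.52 units) was taken as the limit that a count of 0 allows, for counting error only. The genes and lists were chosen with earlier results of these data known.

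The replicate numbers of the labels were checked for pairing by the correlation of deviations from the group means. In EO771 cells each same-numbered pair had an r over 0.1 (0.184, 0.333 and 0.499), and the other pairs had an r of 0.054 or less. With 3 libraries per group such an order can also arise without pairing, and the labels do not state any. The EO771 tests above used group as the only term. With a replicate block the genes called lower in EO771 cells went from 904 to 808, and those called higher from 276 to 275.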

Additional observations from a re-analysis of the deposited data

Results flagged for a closer look

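For 5 genes the log2 change of HECs between mice with and without tumours, minus the same change of BECs, was past the thresholds in the DESeq2 fit. It contains HEC normal against BEC normal, the contrast by which the genes were chosen, with its sign turned, so it is a description and no independent test. The difference was 6.19 for Fbln5, 6.15 for Fbln2, 2.36 for Bgn, 2.10 for Fbln1 and -2.01 for Prelp. Fbln2 and Fbln5 rose in HECs and fell in BECs. The groups set tumour tissue against fat pad for BECs and lymph node against lymph node for HECs, so tissue and tumour cannot be told apart in BECs.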

How the results depend on the processing

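Of 797 recomputed values, 749 kept their direction and their side of the threshold or stayed within 1.5 times the reported count. Values of HEC normal against BEC normal, which have no test, were counted there by another rule. They had to keep their direction and move by less than the SD of log2 counts within the groups. The number of the 10 genes called higher in HEC tumour against BEC tumour was 0 by edgeR, 0 with TMM factors, 0 with no filter, 0 with the 2 groups alone, and 0 to 1 without single libraries, in each case through Prelp, whose value lies on the fold threshold. Without single libraries, the number called lower in HEC tumour against HEC normal was 0 to 1, that called higher in BEC tumour against BEC normal 1 to 2, and that called higher in EO771 cells 0 to 1. All genes called higher in EO771 cells then numbered 226 to 511, the highest without vehicle replicate 3. Low or unchanged genes changed sign without single libraries: Ogn in HEC tumour against BEC tumour (-0.34 to 0.82), Bgn (-0.17 to 0.0214) and Dcn (-0.40 to 0.70) in HEC tumour against HEC normal, Efemp1 in the difference of changes (-0.35 to 2.24) and Fbln1 in EO771 cells (-0.12 to 0.39), none of them called as reported. With a replicate block no call of the 10 genes changed, Dcn in EO771 cells was higher by 1.04 on the log2 scale, and genes called higher in HEC tumour against HEC normal went from 848 to 812. Same-numbered endothelial libraries correlated at -0.093 to 0.336, and not every library correlated best with its own number. With 3 libraries per group such values cannot show whether libraries were paired, and the labels do not state any pairing. Divided by the step, Ogn fell under the filter and gave no value. The cause of these shifts was not tested. Depth limits Lum, Fmod and Ogn, and, in HECs, Dcn and Efemp1, which stood at 0 to 30 deposited units there.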
